A study of Mus musculus with 10 samples.

Results

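The genes described here encode 10 integrin chains of T cell homing, taken by symbol from the 23393 genes of the expression table: the alpha chains Itgal, Itga4, Itgav, Itga6 and Itgae and the beta chains Itgb2, Itgb7, Itgb1, Itgb3 and Itgb8. Messenger RNA was sequenced from CD4+ T cells expressing an IL-22 reporter, obtained by culturing naive splenic CD4+ T cells of C57BL/6 mice aged 10 weeks under Th22 conditions (IL-6, IL-23, IL-1 beta, the aryl hydrocarbon receptor ligand FICZ and antibodies against IL-4 and interferon gamma). The controls (WT, 5 libraries) carried Riok2+/+, Vav1cre/+ and Il22tdtomato/+, and the Riok2hKO mice (5 libraries) carried Riok2f/+ with the same Cre and reporter alleles. The Vav1 promoter drives Cre throughout the blood lineage, so the floxed Riok2 allele is not lost in T cells alone, and in both groups 1 Il22 allele is the reporter. Cells were sorted as CD4+ and tdTomato+ in both genotypes, 5000 per library. Whether each library stands for its own mouse or culture is not labelled, so a p-value reflects library-to-library spread only, and that spread may be technical.

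Integrins are surface receptors made of 1 alpha and 1 beta chain, and a chain reaches the surface only with a partner. Circulating T cells use them to stop on vessel walls, to enter tissue and to stay there. LFA-1 (Itgal with Itgb2) binds ICAM-1. The alpha-4 chain binds VCAM-1 and fibronectin when paired with Itgb1, and the gut vessel addressin MAdCAM-1 when paired with Itgb7. Itgb7 also pairs with Itgae (CD103), which binds E-cadherin on epithelial cells. Itga6 with Itgb1 binds laminin. Itgav pairs with Itgb1, Itgb3 or Itgb8, and binds vitronectin, fibronectin or the latent form of TGF-beta depending on the partner. Activation from inside the cell runs through Rap1, talin and kindlin.

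Itgb1 and Itgav were higher in Riok2hKO, and both chains of LFA-1 were slightly lower. Itgb1 mRNA was 159% of the WT mean and Itgav 141%, while Itgal was 92.1% and Itgb2 90.9%. Values are TPM (transcript abundance corrected for length and scaled to the same total in each library), as mean ± SD of 5 libraries unless stated. A gene is said to have changed where the limma test on log2(TPM + 1) over 10332 genes gave an adjusted p under 0.05. Of the 8 members that passed the filter of 1 TPM in at least 5 libraries, 2 rose, 2 fell and 4 gave no call, so 4 of them changed where 17.1% of all tested genes did. The other 2, Itgae and Itgb8, were under 1 TPM in every library and were not tested. By direction, 9.58% of all tested genes rose and 7.55% fell. The median log2 fold change was 0.039 for the 8 members and -0.0060 for all tested genes. In these bulk samples a change in the share of cells that make a transcript and a change in RNA per cell cannot be told apart.

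Riok2, which encodes a kinase of small ribosomal subunit maturation, measured 26.1 to 29.9 TPM in WT and 12.04 to 16.16 in Riok2hKO, 48.3% of the WT mean (two-sided exact permutation p = 0.00794, the smallest that 5 against 5 libraries can give). Of the T helper markers Cd3d, Cd3e, Cd3g, Cd4 and Cd28, all 5 were present in every library, with a sum of 1128 to 1155 TPM in WT and 1055 to 1108 in Riok2hKO. The sum of Il22, Il17f, Ahr and Il23r was 305 to 386 TPM in WT and 1101 to 1479 in Riok2hKO. Between the WT and Riok2hKO means, Il22 rose from 59.2 to 316 TPM, Il17f from 280 to 941 and Il23r from 2.75 to 14.6 (limma adjusted p = 5.78e-07, 5.78e-07 and 8.87e-06). Ahr was under 1 TPM in every library. Markers of other integrin-bearing cells were near 0: the 7 platelet markers (Itga2b, Gp9, Gp1bb, Gp5, Gp6, Pf4 and Ppbp) summed to at most 0.870 TPM in WT and 0.590 in Riok2hKO, with Gp6, Pf4 and Ppbp at 0 throughout, and the 6 myeloid markers summed to at most 0.680 and 0.590. The 4 B cell markers summed to 1.67 to 2.97 and 1.16 to 2.35 TPM, the regulatory T cell pair Foxp3 and Ikzf2 to 1.44 to 2.24 and 1.72 to 2.16, and the NK markers Ncr1, Klrb1c and Eomes to 0.490 to 1.63 and 0.370 to 0.820. The CD8 pair Cd8a and Cd8b1 summed to 17.5 to 19.6 TPM in WT and 11.5 to 14.8 in Riok2hKO, with Cd8a under 1 TPM in every library. Among the T helper markers Cd3d and Cd3g fell and Cd28 rose (limma adjusted p = 0.000149, 0.00427 and 0.000377). Cd8b1 fell as well (limma adjusted p = 0.00127). Whether the marker sums that did not overlap between genotypes (T helper, Th22/Th17 and CD8) play a part in the integrin results was not tested. WT replicate 1 stood apart from the other WT libraries, with 122 of the tested genes at least 1 log2 unit below their mean and 11 at least 1 above.

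**Figure D1:**
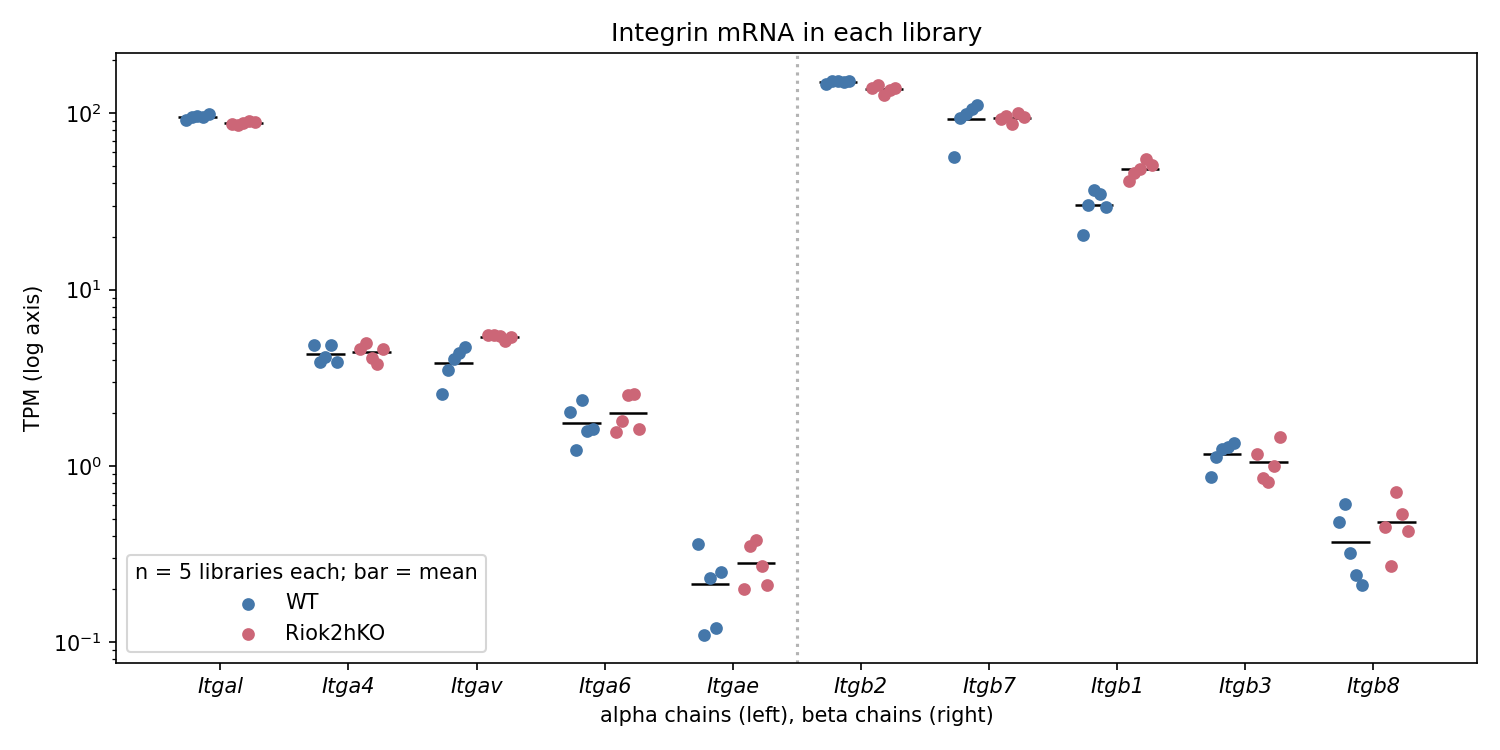
TPM of the 10 integrin genes in each library on a log axis, WT in blue and Riok2hKO in red, 5 libraries each, with the mean as a bar. Itgb2, Itgal and Itgb7 are the most abundant in both genotypes, Itgb1 and Itgav lie higher in Riok2hKO with no overlap, and WT replicate 1 (leftmost blue point of each gene) is low for Itgb7, Itgb1 and Itgav.

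The levels of the members differed widely, and the genotypes shared most of their order. In WT the order of means was Itgb2 (151 TPM), Itgal (95.7), Itgb7 (93.3), Itgb1 (30.4), Itga4 (4.32), Itgav (3.85), Itga6 (1.76), Itgb3 (1.17), Itgb8 (0.372) and Itgae (0.214). The libraries' ranges overlapped between the neighbours Itgal and Itgb7, Itga4 and Itgav, Itga6 and Itgb3, and Itgb8 and Itgae. In Riok2hKO the order was Itgb2 (137), Itgb7 (94.5), Itgal (88.2), Itgb1 (48.3), Itgav (5.41), Itga4 (4.40), Itga6 (2.01), Itgb3 (1.06), Itgb8 (0.478) and Itgae (0.282), with overlap between Itgb7 and Itgal and between Itgb8 and Itgae. Itgav thus stood below Itga4 with overlapping ranges in WT and above it without overlap in Riok2hKO. Without WT replicate 1 the WT means of these 2 genes were nearly equal (4.1825 TPM for Itga4 and 4.165 for Itgav). The places of Itgal and Itgb7 in WT rested on WT replicate 1, since without it the WT means were 102 TPM for Itgb7 and 96.7 for Itgal, the order of Riok2hKO.

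Both chains of LFA-1 were abundant and fell slightly. Itgb2, the beta chain of LFA-1 and of the other leukocyte integrins (chromosome 10, 77530329 to 77565708, mm10), measured 146, 152, 152, 151 and 153 TPM in WT replicates 1 to 5, and 139, 145, 126, 136 and 140 TPM in Riok2hKO. Each Riok2hKO library was below each WT library, by a small margin at the closest pair (144.61 and 146.05). It fell by 0.14 on the log2 scale (SE 0.0356, limma adjusted p = 0.0203), and the log2 fold change stayed between -0.16 and -0.11 with any 1 library left out. Itgal, the alpha chain (chromosome 7, 127296139 to 127335137), measured 91.7, 95.8, 96.2, 95.9 and 98.8 TPM in WT and 86.7, 85.6, 88.4, 90.4 and 89.7 TPM in Riok2hKO. Its groups did not overlap either. Itgal fell by 0.12 on the log2 scale (SE 0.0305, limma adjusted p = 0.0217). Itgal missed the threshold without WT replicate 5 (adjusted p = 0.05206) or Riok2hKO replicate 2 (adjusted p = 0.0528). Among all tested genes, groups that did not overlap were found lower in Riok2hKO for 5.87% and higher for 8.72%. The ratio of Itgal to Itgb2 was 0.628 to 0.645 in WT and 0.592 to 0.6999 in Riok2hKO, so the ranges overlapped and the means (0.634 and 0.644) were close. Within WT these were the members with the smallest spread: the SD was 1.85% of the mean for Itgb2 and 2.66% for Itgal.

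Itgb1, the beta chain shared by the receptors for fibronectin, VCAM-1 and laminin (chromosome 8, 128685654 to 128733579), had the largest difference of the members tested. It measured 20.5, 30.4, 37.0, 34.7 and 29.5 TPM in WT replicates 1 to 5, and 41.1, 46.1, 48.5, 55.01 and 50.8 TPM in Riok2hKO. Every Riok2hKO library lay above every WT library, and WT replicate 1 was the lowest. Itgb1 rose by 0.67 on the log2 scale (SE 0.132, 95% interval 0.38 to 0.96, limma adjusted p = 0.00531). Without WT replicate 1 the rise was 0.54 with an adjusted p of 0.000940, and over all alternatives tried the adjusted p ran from 0.000940 to 0.0180.

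Itgav (chromosome 2, 83722303 to 83806917), the alpha chain that pairs with Itgb1, Itgb3 or Itgb8, moved in the same direction at a much lower level. It measured 2.57, 3.52, 4.05, 4.36 and 4.73 TPM in WT and 5.54, 5.5, 5.47, 5.13 and 5.41 TPM in Riok2hKO. The Riok2hKO values lay close together (SD 3.02% of the mean, against 21.8% in WT) and above all WT values. Part of the WT spread came from WT replicate 1. The WT SD was 0.840 TPM with it and 0.512 without it (n = 4), against 0.164 in Riok2hKO. On the log2 scale Itgav rose by 0.42 (SE 0.111, 95% interval 0.18 to 0.66, limma adjusted p = 0.0226), and 0.32 without WT replicate 1 (adjusted p = 0.0167). With no filter on low values, when 18309 genes were tested, the adjusted p was 0.0581.

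For these 2 genes and for Itgb7, described next, the 250 bases before the RefSeq start are shown with CpG dinucleotides in capitals (GRCm38.p6; sense strand of the gene, 5′ to 3′). They are shown because Itgb1 and Itgav are the members that rose, while Itgb7 is an abundant member whose groups overlapped. The windows are chr8:128685404-128685653 (plus strand), chr2:83724147-83724396 (plus strand) and chr15:102231936-102232185 (minus strand). For Itgav and Itgb7 this start lies inside the annotated span of the gene, so transcripts with other starts are also annotated.
Itgb1: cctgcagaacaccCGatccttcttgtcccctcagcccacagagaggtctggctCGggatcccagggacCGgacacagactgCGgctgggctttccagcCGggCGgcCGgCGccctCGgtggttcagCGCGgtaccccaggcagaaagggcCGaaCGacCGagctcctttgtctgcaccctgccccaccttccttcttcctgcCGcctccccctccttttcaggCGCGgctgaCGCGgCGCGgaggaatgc
Itgav: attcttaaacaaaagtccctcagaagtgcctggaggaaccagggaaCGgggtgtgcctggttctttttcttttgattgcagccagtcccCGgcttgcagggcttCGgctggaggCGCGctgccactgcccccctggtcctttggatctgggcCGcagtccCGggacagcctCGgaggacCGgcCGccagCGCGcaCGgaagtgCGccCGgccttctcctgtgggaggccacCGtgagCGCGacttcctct
Itgb7: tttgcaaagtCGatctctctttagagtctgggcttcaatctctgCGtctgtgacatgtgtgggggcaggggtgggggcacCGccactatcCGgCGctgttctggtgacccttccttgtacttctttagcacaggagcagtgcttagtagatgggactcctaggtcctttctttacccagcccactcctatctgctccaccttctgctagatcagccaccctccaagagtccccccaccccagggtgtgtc

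The windows of the members that rose are rich in CpG, with 21 CpG and 68.0% GC for Itgb1 and 18 CpG and 64.4% GC for Itgav. Itgb7 holds 5 CpG and 56.0% GC. Itga4 and Itgb8, the other 2 of the 5 members found among the RefSeq promoters, hold 6 and 12 CpG, with 64.0% and 62.4% GC. Itgal and Itgb2, the members that fell, were not found there, so no window of theirs can be set beside these. The median over 32851 RefSeq windows of the same length is 6 CpG and 52.4% GC. A search on both strands for GGGCGG (GC box) found 1 match each in Itgb1 and Itga4 and none in Itgav, Itgb7 or Itgb8, where 32.7% of all windows hold one. CCGGAA (ETS core), CACGTG (E-box), TGACTCA (AP-1) and TGTGGTT (RUNX), held by 12.03%, 6.02%, 4.46% and 4.40% of all windows, were in none of the 5. A match is a description of letters in this window and not a binding site.

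Itgb7 (chromosome 15, 102215994 to 102233405), the beta chain of both gut-homing integrins, was abundant and its genotypes overlapped. It measured 56.6, 93.8, 99.1, 106 and 111 TPM in WT and 93.1, 96.9, 87.5, 100.2 and 95.04 TPM in Riok2hKO. Apart from WT replicate 1, 3 of the 4 WT libraries were higher than 4 of the 5 Riok2hKO libraries. The log2 fold change was 0.055 (95% interval -0.26 to 0.37, limma adjusted p = 0.832), and without WT replicate 1 it was -0.11 (adjusted p = 0.160), so 1 library set its sign. Itga4 (chromosome 2, 79255426 to 79333114), the partner of Itgb7 in the MAdCAM-1 receptor, measured 4.87, 3.87, 4.15, 4.84 and 3.87 TPM in WT and 4.61, 4.96, 4.07, 3.77 and 4.61 TPM in Riok2hKO. The log2 fold change was 0.023 (95% interval -0.16 to 0.21, limma adjusted p = 0.884). Its span overlaps that of Cerkl (0.958 TPM over all libraries). Whether their exons overlap was not checked, and reads from any shared exon could not be assigned by strand. Itgae (chromosome 11, 73090505 to 73147449), the CD103 chain, measured 0.360, 0.110, 0.230, 0.120 and 0.250 TPM in WT and 0.200, 0.350, 0.380, 0.270 and 0.210 TPM in Riok2hKO. All 10 libraries were thus low in CD103 mRNA and overlapped between genotypes, and TPM keeps no depth from which a detection limit could be given. The span of Itgae overlaps that of Haspin, and those of Itgav and Itgb8 overlap the pseudogenes Dnmt3l-ps1 and Gm52023, all without a row under these symbols.

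The low members also overlapped between genotypes. Itga6 (chromosome 2, 71786886 to 71858427), a laminin receptor chain, measured 2.02, 1.23, 2.38, 1.57 and 1.61 TPM in WT and 1.55, 1.80, 2.51, 2.55 and 1.62 TPM in Riok2hKO (log2 fold change 0.12, 95% interval -0.17 to 0.42, limma adjusted p = 0.580), and its log2 fold change ran from 0.049 without WT replicate 2 to 0.20 without WT replicate 3. Itgb3 (chromosome 11, 104608000 to 104670476), known from the platelet fibrinogen receptor and as a partner of Itgav, measured 0.860, 1.12, 1.25, 1.28 and 1.35 TPM in WT and 1.17, 0.850, 0.810, 1.00 and 1.46 TPM in Riok2hKO (log2 fold change -0.082, 95% interval -0.32 to 0.15, limma adjusted p = 0.651). For Itgb3 the log2 fold change was -0.14 without WT replicate 1, -0.15 without Riok2hKO replicate 5 and -0.038 without Riok2hKO replicate 3. Neither gene's libraries separated by genotype. Itgb8 (chromosome 12, 119162803 to 119238276), which with Itgav activates latent TGF-beta, measured 0.480, 0.610, 0.320, 0.240 and 0.210 TPM in WT and 0.450, 0.270, 0.71, 0.530 and 0.430 TPM in Riok2hKO. Tested with no filter, the log2 fold changes of Itgae and Itgb8 were 0.080 and 0.11 (limma adjusted p = 0.565 and 0.624).

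**Figure D2:**
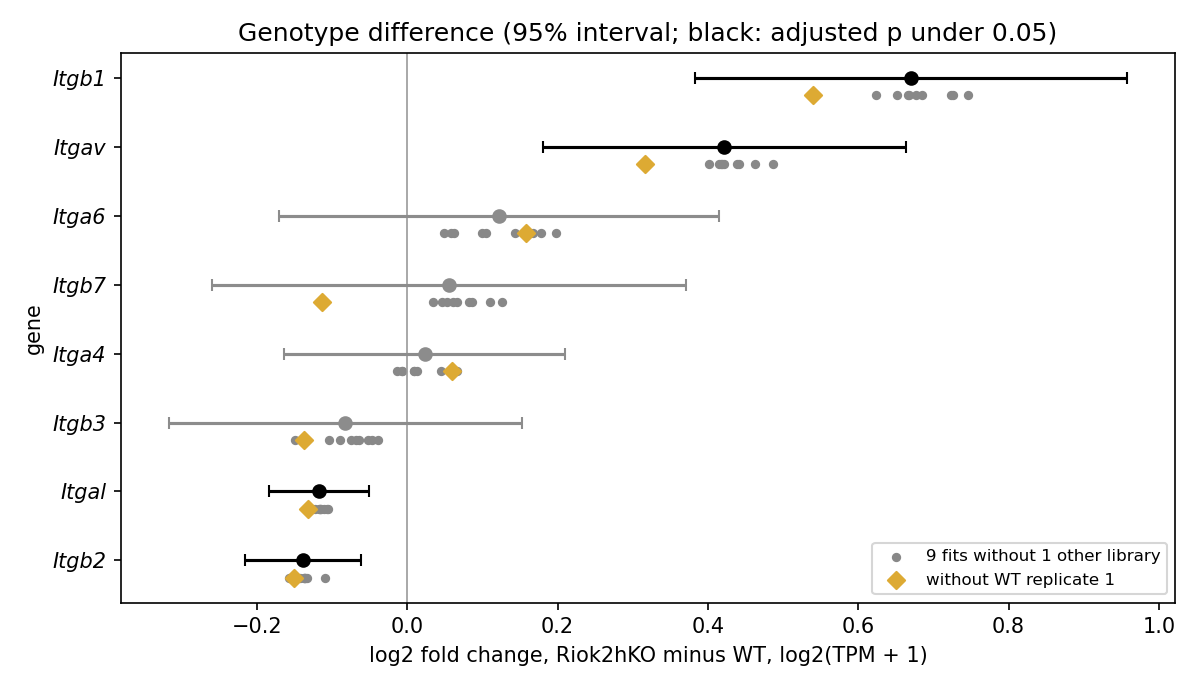
Log2 fold change (Riok2hKO minus WT, on log2(TPM + 1)) of the 8 tested integrin genes with 95% intervals, black where the adjusted p was under 0.05, and below each the 10 fits that leave out 1 library. Itgb1 and Itgav stay above 0 and Itgal and Itgb2 below 0 in every such fit, and Itgb7 moves from 0.055 to -0.11 without WT replicate 1 (diamond). Itga6 also stays above 0 and Itgb3 below 0 in every such fit, though neither gave a call.

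Itgb7 and Itgb1 compete as partners of Itga4, and their mRNA ratio was lower in Riok2hKO. The ratio of Itgb7 to Itgb1 mRNA, which compares the partners that give the MAdCAM-1 receptor and the VCAM-1 receptor, was 2.76, 3.08, 2.68, 3.06 and 3.76 in WT and 2.27, 2.10, 1.80, 1.82 and 1.87 in Riok2hKO. The ranges did not overlap, and the mean ratio went from 3.07 ± 0.424 to 1.97 ± 0.203. WT replicate 1, low for both genes, lay inside the WT range of the ratio. Since these genes were chosen with earlier results known, the ratios are given without a test. The ratio of Itgb3 to Itgb1 was also lower without overlap (0.0338 to 0.0458 in WT, 0.0167 to 0.0288 in Riok2hKO), whereas Itgb8 to Itgb1, Itgb8 to Itgb3 and Itgae to Itga4 overlapped. Both lower ratios are divided by Itgb1, which rose. Itgb7 and Itgb3 gave no call (limma adjusted p = 0.832 and 0.651). Neither ratio is thus a result separate from the rise of Itgb1.

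As a share of the TPM of the 5 beta chains, Itgb1 made up 9.12% to 12.8% in WT and 15.0% to 18.8% in Riok2hKO. This share contains the rise of Itgb1 and is not a separate result. Itgb2 made up 51.5% to 65.1% and 46.5% to 50.5%, without overlap. The Itgb2 share contains the fall of Itgb2 and the rise of Itgb1 and is not a separate result either. Itgb7 made up 25.2% to 37.6% and 33.0% to 34.2%. Without WT replicate 1 the WT range was 51.5% to 54.7% for Itgb2 and 33.7% to 37.6% for Itgb7, and the WT mean of Itgb7 moved from 33.4% to 35.4%, from below to above the Riok2hKO mean of 33.6%. The sum of the 5 beta chains was 276 ± 29.6 TPM in WT and 282 ± 12.2 in Riok2hKO, and the ranges overlapped. WT replicate 1 had the lowest sum (224 TPM), and without it the WT mean was 289 ± 7.76 (n = 4), above that of Riok2hKO, so 1 library set the direction. Among the 5 alpha chains, Itgal held 89.8% to 91.6% in WT and 87.2% to 88.5% in Riok2hKO, and Itgav 2.53% to 4.33% and 5.02% to 5.62%. These 2 shares contain the fall of Itgal and the rise of Itgav and are not separate results. The 5 alpha chains summed to 106 ± 2.93 and 100.3 ± 1.75 TPM. Neither the shares nor this sum include Itga3 (36.9 TPM in WT and 41.6 in Riok2hKO) or Itga5 (5.54 and 6.12), which are not members. Beta chain mRNA thus exceeded alpha chain mRNA of these members in both genotypes.

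**Figure D3:**
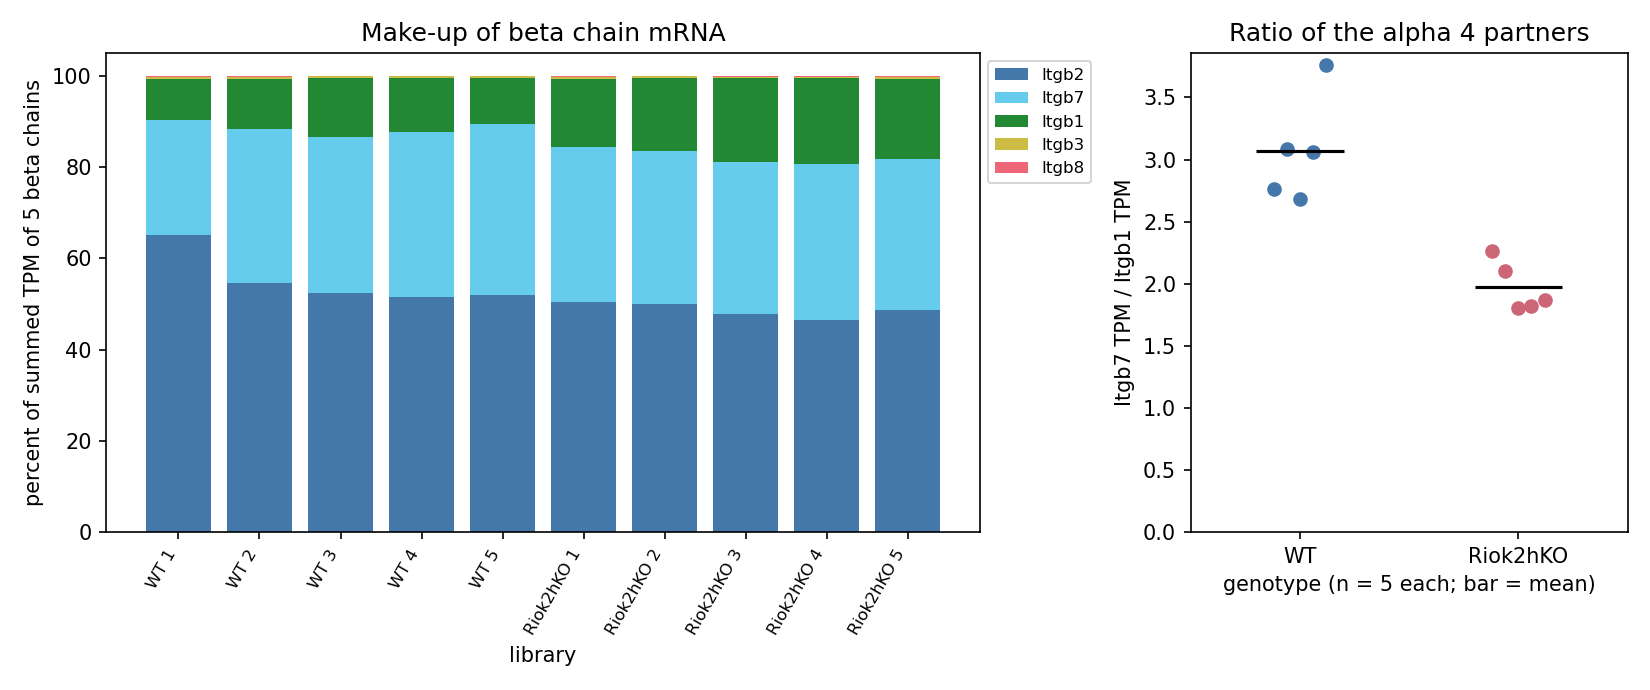
Left, the percent of the summed TPM of the 5 beta chains held by each chain in every library. Right, the ratio of Itgb7 to Itgb1 TPM per library with the mean as a bar (n = 5 each). Itgb1 takes 15.0% to 18.8% in Riok2hKO against 9.12% to 12.8% in WT, and the ratio is lower in all 5 Riok2hKO libraries.

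The members differed in how far WT replicate 1 lay from the other 4 WT libraries, on the log2(TPM + 1) scale. It was lower by the widest margin for Itgb7 (-0.84), Itgb1 (-0.65), Itgav (-0.53) and Itgb3 (-0.27), and lay between -0.075 and 0.21 for the other 6. The GC content of the longest GENCODE coding transcript was 58.0% for Itgb7, 44.8% for Itgb1, 43.5% for Itgav and 52.1% for Itgb3, within the range of the members (40.4% for Itgb8 to 58.0%). The most GC-rich window of 100 nucleotides held 76% to 83% GC in those 4 and 64% to 70% in Itgae, Itgal, Itgb2, Itgb8 and Itga4. Itga6, at 87%, lay 0.18 higher in WT replicate 1. Whether such windows play a part in the low values of that library was not tested.

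Outside the members, 3 of the 16 other integrin chains passed the filter, and 2 of these rose. For the counts in this and the following lists, 9.58% of all tested genes rose and 7.55% fell. The remaining 13 had a mean under 1 TPM, with 0.530 TPM as the highest single value. Itga3, a laminin receptor chain that pairs with Itgb1, went from 36.9 ± 0.878 to 41.6 ± 2.78 TPM (log2 fold change 0.17, limma adjusted p = 0.0305, past the threshold no longer in 8 of 19 alternatives, with 0.05008 without WT replicate 1). Itga7, another laminin receptor chain, measured 1.69, 1.46, 2.15, 1.57 and 1.41 TPM in WT and 3.94, 3.18, 3.39, 5.66 and 2.38 TPM in Riok2hKO (log2 fold change 0.80, SE 0.154, limma adjusted p = 0.00485). The Itga7 groups did not overlap. Itga5, the fibronectin receptor chain, measured 5.54 ± 0.357 and 6.12 ± 0.836 TPM (limma adjusted p = 0.349). The 6 alpha partners of Itgb1 with a mean of at least 1 TPM (Itga3, Itga4, Itga5, Itga6, Itga7 and Itgav) summed to 52.0 to 56.4 TPM in WT and 57.8 to 67.6 in Riok2hKO. Itga3 is the largest part of this sum. The sum contains the rises of Itga3, Itga7 and Itgav and is not a separate result. Itgb1 per unit of that sum was 0.394 to 0.655 and 0.633 to 0.879, and these ranges overlapped.

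Genes that switch integrins on from inside the cell included 4 that rose and 1 that fell among 15 tested, with a median log2 fold change of 0.086. Fermt3, which encodes kindlin-3, the kindlin of blood cells, went from 242 ± 6.21 to 273 ± 11.2 TPM (log2 fold change 0.17, limma adjusted p = 0.00366). The adaptor genes Fyb (36.9 ± 1.71 to 46.5 ± 2.90 TPM, adjusted p = 0.00131) and Skap2 (17.8 ± 2.12 to 23.0 ± 1.56, adjusted p = 0.00820) rose by 0.32 and 0.35 on the log2 scale. Cyth1, encoding the LFA-1-binding protein cytohesin-1, rose by 0.32 (29.3 ± 2.33 to 36.9 ± 2.81 TPM, adjusted p = 0.00482). The 1 that fell, Rassf5, which encodes the Rap1 effector RAPL and lies outside the rule for named genes, went from 94.7 ± 4.76 to 87.2 ± 1.15 TPM (adjusted p = 0.0433), and no activator was called lower in 12 of 19 alternatives. Tln1, encoding talin-1, measured 29.6 ± 1.28 and 29.5 ± 0.940 TPM (adjusted p = 0.973).

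Of 7 inhibitors tested, 1 rose and 1 fell, with a median of -0.012. Sipa1l1, which encodes a Rap GTPase-activating protein, went from 5.00 ± 0.457 to 6.31 ± 0.586 TPM (limma adjusted p = 0.0241) and lost its call in 5 of 19 alternatives. Dok2, an adaptor that dampens tyrosine kinase signalling, went from 80.1 ± 3.59 to 71.5 ± 5.09 TPM (adjusted p = 0.0453) and lost its call in 11. Sharpin measured 35.6 ± 1.12 and 34.4 ± 1.81 TPM (adjusted p = 0.460). Sipa1 was 18.5 TPM in WT replicate 1 and 37.1 to 40.6 in the other WT libraries (adjusted p = 0.520).

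Of 20 tested genes of focal adhesions and signalling from bound integrins, 2 rose and 2 fell, with a median of -0.019. Of all tested genes, 17.1% changed in either direction. Parvg, encoding the blood-cell parvin that acts with integrin-linked kinase, went from 114 ± 2.36 to 95.7 ± 3.28 TPM (log2 fold change -0.25, limma adjusted p = 0.000326), and Tns1, encoding tensin-1, from 5.42 ± 0.485 to 4.19 ± 0.182 (adjusted p = 0.0101). Lpxn, which encodes the paxillin relative leupaxin, went from 140 ± 11.1 to 167 ± 11.1 TPM (adjusted p = 0.00891), and the kinase gene Ptk2b (PYK2) from 22.95 ± 2.05 to 28.1 ± 2.87 (adjusted p = 0.0258, lost in 5 of 19 alternatives). The groups did not overlap for these 4 genes.

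Of 11 membrane proteins that associate with integrins, 1 rose and 3 fell, with a median of -0.0021. Cd47, the integrin-associated protein that signals to phagocytes, went from 275 ± 4.89 to 323 ± 5.89 TPM (log2 fold change 0.23, limma adjusted p = 7.00e-05). The tetraspanin genes Cd9 (143 ± 13.3 to 106 ± 10.9 TPM) and Cd81 (298 ± 11.3 to 257 ± 18.9) fell by 0.43 and 0.21 on the log2 scale (adjusted p = 0.00300 and 0.00910). Slc3a2, encoding the CD98 heavy chain, which binds integrin beta tails, went from 204 ± 6.14 to 188 ± 6.32 TPM (adjusted p = 0.0236, lost in 5 of 19 alternatives).

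Among the 10 tested genes of the selectin pathway and other adhesion molecules that are reported here, 1 fell, and their median was -0.053. The 1 that fell, the sialyltransferase gene St3gal6, stood at the threshold (3.44 ± 0.506 and 2.47 ± 0.516 TPM, adjusted p = 0.0499) and lost its call in 14 of 18 alternatives. Fut7, the fucosyltransferase of selectin ligands, measured 9.84 ± 0.891 and 8.90 ± 0.294 TPM (adjusted p = 0.184), and Jaml 2.15 ± 0.298 and 1.68 ± 0.576 (adjusted p = 0.233). Cd99l2 measured 3.78 ± 1.03 and 3.24 ± 0.472 TPM (adjusted p = 0.493).

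Of the ligand genes, 5 of 14 were expressed highly enough to be tested and 0 were called by limma, the one tool run. At an unadjusted p under 0.05 there was 1, Icam2 (48.6 ± 3.49 and 44.3 ± 2.79 TPM, unadjusted p = 0.0409, adjusted p = 0.141), followed by Icam1 (29.8 ± 2.78 and 31.3 ± 1.85, adjusted p = 0.480). The median of these 5 was -0.11. Icam5 measured 1.91 ± 0.304 and 1.71 ± 0.373 TPM and Spp1, encoding osteopontin, 3.10 ± 2.67 and 2.17 ± 1.41 (adjusted p = 0.566 and 0.719).

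Among 10 genes that tie Itgav to latent TGF-beta, 4 were tested, 1 rose and 0 fell, with a median of -0.0014. Furin, which encodes the protease that cleaves the TGF-beta precursor and processes several integrin alpha chains, measured 53.9, 68.8, 67.2, 66.8 and 71.3 TPM in WT and 113, 117, 125, 131 and 112 TPM in Riok2hKO. Furin rose by 0.86 on the log2(TPM + 1) scale (SE 0.0716, limma adjusted p = 1.67e-05), and the groups were far apart. On that scale the rise was larger than that of any other gene tested in these lists. This rank depended on the 1 added to each TPM value, since Itga7 had the larger log2 fold change with each smaller added value tried. The Riok2hKO mean was 183% of the WT mean for Furin and 224% for Itga7. Tgfb1 (2.76 ± 0.502 and 3.08 ± 0.250 TPM), and Nrros (23.3 ± 1.67 and 21.3 ± 1.203) and Lrrc32 (1.38 ± 0.276 and 1.12 ± 0.298), which encode proteins that hold latent TGF-beta on the cell surface, did not pass (adjusted p = 0.402, 0.154 and 0.364).

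**Figure D4:**
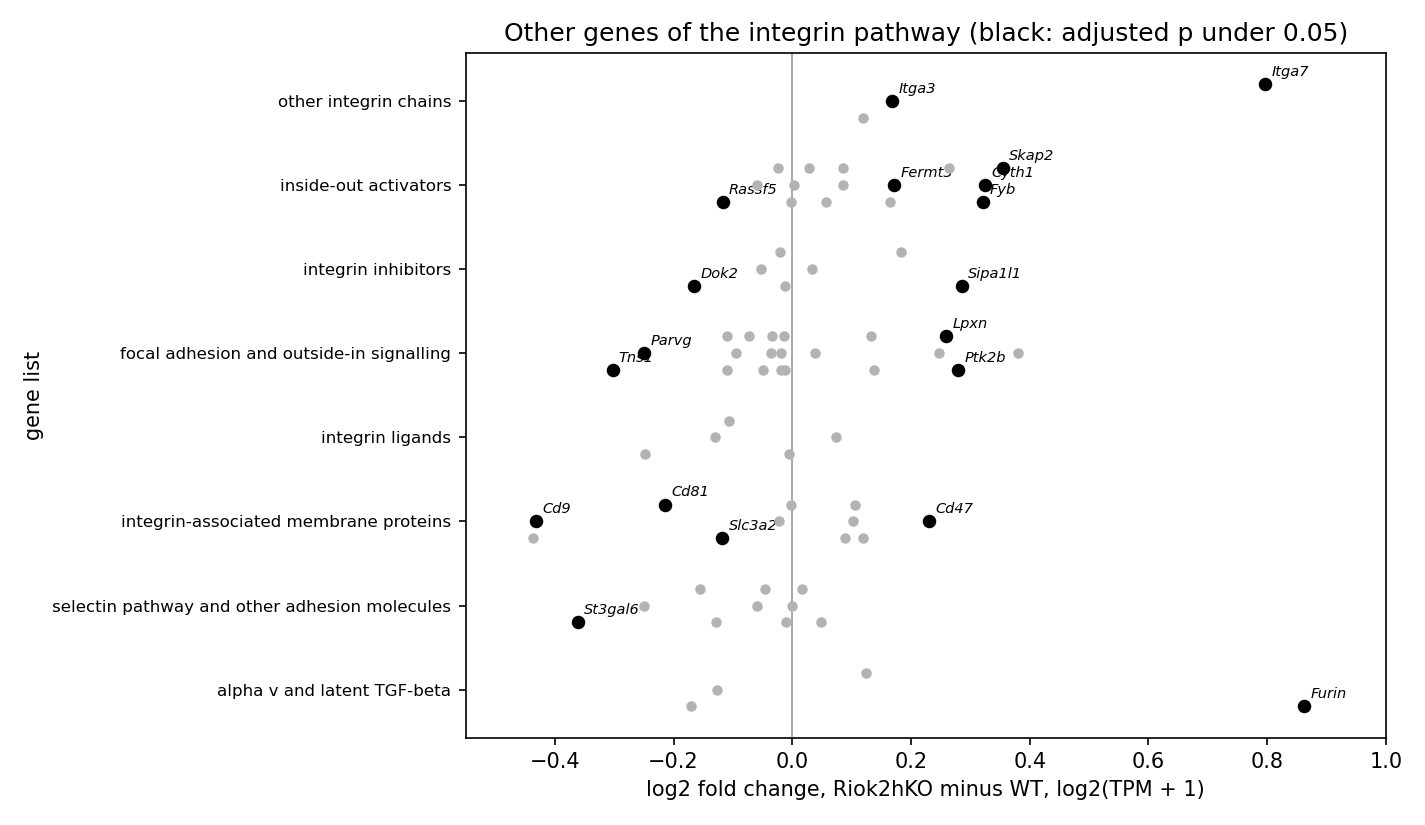
Log2 fold change (Riok2hKO minus WT, on log2(TPM + 1)) of each tested gene in 8 lists of the integrin pathway, black and named where the adjusted p was under 0.05. Furin (0.86) and Itga7 (0.80) lie farthest to the right, Cd9 (-0.43) is the lowest of the called genes, and most genes of each list lie near 0.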

How the data were processed

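The authors deposited TPM per gene symbol: per the labels' protocols, SMART-seq2 libraries of 5000 sorted cells (10 cycles of amplification, 0.2 ng of cDNA, 38-nucleotide read pairs) were mapped with Bowtie to the transcriptome of mm10 and quantified with RSEM, version 1.2.8 per the submitters' processing notes. No version of Bowtie was given in the sources used here. These values keep no depth, so no counting error can be given, and they are shares: a rise in some transcripts lowers others. SMART-seq2 does not mark strand.

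Of 23420 rows, 27 whose symbol had become a date (0.107% to 0.114% of a library's TPM) were left out. Columns were assigned from their names and the sample titles. Log2(TPM + 1) was tested with limma 3.58.1 in R 4.3.3 (lmFit, eBayes with trend, genotype term, Benjamini-Hochberg adjustment) on the 10332 genes that reached 1 TPM in 5 or more libraries. Adjusted p-values are from this test and cover all tested genes. Tested on simulated data for this comparison (10254 genes, 200 changed), the test recovered 93% of log2 changes of size 0.5 and 100% of those of size 1, with 4.46% false calls. Changes were planted only above a mean level that Itgav, Itga4, Itga6 and Itgb3 do not reach. Sizes below 0.5, such as those of Itgal and Itgb2, were not tried. Noise was drawn separately for each gene, so no simulated library stood apart as WT replicate 1 does. These rates therefore do not cover those cases.

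Members and lists were chosen with earlier results of these data known. Genes named are the members, Riok2, other integrin chains with a mean of at least 1 TPM, and up to 4 genes per list with the smallest p; Rassf5 and Tln1 were chosen after their values were seen. Coordinates and promoters are from RefSeq (GRCm38.p6, the mm10 assembly) and transcripts from GENCODE vM21. Of the list genes only Cd99 had no row, and some genes of these lists are not reported here. Same-numbered libraries did not deviate together (r = -0.034 to 0.068), so numbers were not used as pairs. Alternatives covered pseudocount, filter, scaling, variance model, array weights, the replicate block and each library left out. Sums, ratios and figures used Python 3.11.15 with matplotlib 3.10.9.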

Additional observations from a re-analysis of the deposited data

Results flagged for a closer look

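In 9 of 116 groups of 5 libraries checked, 1 library lay far from the others, where chance gives about 1 in 20. WT replicate 1 accounted for 4 of them. Itgb2 was 146.05 TPM there, where the other WT replicates measured 151 to 153, and held 65.1% of the beta chain TPM against 51.5% to 54.7%, in the library where Itgb7 and Itgb1 were low. Sipa1 was 18.5 TPM there against 37.1 to 40.6, and Furin 53.9 against 66.8 to 71.3. Cd47 was 266 TPM in WT replicate 3 against 275 to 278 in the remaining WT replicates. Among Riok2hKO libraries, Cyth1 (41.88 TPM against 35.2 to 36.15) and Lpxn (186.54 against 159 to 165) were high in replicate 4, and Itga5 (7.61 against 5.67 to 5.89) in replicate 3, and Cd99l2 (2.4 TPM against 3.41 to 3.54) was low in replicate 4. Each gene called in the comparison and listed here (Itgb2, Cyth1, Lpxn, Cd47 and Furin) was also called without the library in question.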

How the results depend on the processing

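For the 8 tested members, 139 of 148 values under the alternatives kept their direction and side of the threshold. The count of members called higher was 2, and 1 with no filter or with a mean of at least 5 TPM, where Itgav was not tested. It was 2 with any 1 library left out. The count called lower was 2, and 1 to 2 with 1 library left out. Itga4, not called, turned to -0.00392 with quantile normalization and to -0.00750, -0.00750 and -0.013 without WT replicate 2, WT replicate 5 and Riok2hKO replicate 2. Itgb7, not called, turned to -0.0252 with array weights and to -0.11 without WT replicate 1. Of the pathway genes, Sipa1 turned to -0.023 without WT replicate 1 and Spp1 to 0.060 without WT replicate 3. With 1 library left out the values ran up to 0.067 for Itga4, 0.13 for Itgb7 and 0.25 for Sipa1, and down to -0.49 for Spp1. The cause of these turns was not tested. With the replicate number as a block, 2 members were called higher and 2 lower, with a log2 fold change of 0.67 for Itgb1 (adjusted p = 0.00160) and -0.12 for Itgal (adjusted p = 0.0497). The difference in the ratio of Itgb7 to Itgb1 ran from -1.19 to -0.92 and that in the Itgb1 share of the beta chains from 5.77 to 6.77 percentage points with 1 library left out. The difference in the beta chain sum, an alternative chosen after seeing the data, was 5.39 TPM, -7.52 without WT replicate 1 and up to 10.1 without another library. The number of members that changed rank was 0 to 2 in WT and 0 in Riok2hKO. Over all genes, quantile normalization turned the balance of calls (845 higher, 947 lower, against 990 and 780). The depth behind low members such as Itgae and Itgb8 is unknown.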
